A study of Homo sapiens with 12 samples.

Results

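The genes described here are 10 contractile and actin-binding targets of serum response factor, with the factor's own gene among them: SRF, TPM1, TPM2, VCL, CNN2, NEXN, TAGLN, ACTA2, CNN1 and MYL9. They were taken by symbol from the 23228 genes of the count tables, and all 10 were found. The genes were chosen by name with results from these libraries known, that is with their differences between the 4 groups in view, and which of those values led to the choice is not recorded. Their levels and differences are therefore given as a description, without p-values of their own. Of the 10 genes, 8 passed the filter on low counts and were among the 14571 genes fitted; CNN1 and MYL9 did not. ACTA2 passed at 4 to 19 counts per library, through the combination and tazemetostat groups alone, where it was high.

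The cells were of the human line MDA-MB-468, which derives from a basal, triple-negative breast tumour, grown in medium with 2% serum. The combination group received ipatasertib, an inhibitor of the kinase AKT, together with tazemetostat, an inhibitor of the histone methyltransferase EZH2. The other groups were given ipatasertib alone, tazemetostat alone, or the solvent DMSO. Each drug was used at 5 µM, tazemetostat from day -5 and ipatasertib for the last 24 h. Each of the 4 groups holds 3 poly(A) RNA libraries lettered A, B and C. The labels do not say whether these came from separate cultures, so the spread between them may be technical, and 1 cell line stands for all groups.

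Serum response factor is a transcription factor that binds a short DNA element called the CArG box. It works with 2 classes of partner: the ternary complex factors, which carry signals from MAP kinases, and the myocardin-related factors MKL1 and MKL2. The MKL proteins are held by monomeric actin and are released when actin assembles into filaments, so that the state of the cytoskeleton feeds back on the genes that build it. In smooth muscle this system drives the contractile proteins, and in epithelial tumour cells it is known for its control of actin filaments, adhesion and movement.

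Libraries held 12981622 to 28746965 counts in genes, so that 3 counts, taken as the detection floor, stood for 0.106 to 0.228 CPM, the count scaled to library size. Within each group, libraries B and C were alike (chi-square per degree of freedom 2.41 to 3.61 over genes), and library A lay further from them (4.36 to 15.5). Each result that library A decides is given without it as well. A list of genes known from this basal line, the keratins KRT5, KRT6B, KRT17 and KRT8, the general epithelial genes CDH1 and EPCAM, and EGFR, was present in every group. Its sum of 4545 to 5036 CPM with the combination, 5695 to 5986 CPM with ipatasertib, 4758 to 4980.4 CPM with tazemetostat and 5348 to 5710.2 CPM with DMSO hides opposite differences. KRT5 averaged 443 ± 35.7 CPM with the combination, 1171 ± 67.3 CPM with ipatasertib and 1022 ± 39.9 CPM with tazemetostat, against 1718 ± 74.3 CPM with DMSO (SD, n = 3). EGFR averaged 2243 ± 192 CPM with the combination, 2257 ± 323 CPM with ipatasertib and 1248 ± 93.3 CPM with tazemetostat, against 1065 ± 52.8 CPM with DMSO (SD, n = 3).

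The promoters of 3 of the genes are shown. Those of SRF and CNN2 hold the element itself, and NEXN was the only fitted member with a called interaction of the drugs, given below. They are the 300 bases from 250 before to 50 after the annotated start, from RefSeq on GRCh38.p14, read 5′ to 3′ on the plus strand, with exact CArG boxes in capitals. The SRF window is chr6:43171019-43171318, the CNN2 window chr19:1026358-1026657 and the NEXN window chr1:77888374-77888673.
SRF: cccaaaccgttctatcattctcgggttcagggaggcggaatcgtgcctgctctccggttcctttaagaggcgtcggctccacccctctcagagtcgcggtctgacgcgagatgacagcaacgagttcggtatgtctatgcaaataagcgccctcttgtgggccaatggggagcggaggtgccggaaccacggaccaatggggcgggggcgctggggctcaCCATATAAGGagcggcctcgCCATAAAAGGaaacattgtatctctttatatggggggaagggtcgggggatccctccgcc
CNN2: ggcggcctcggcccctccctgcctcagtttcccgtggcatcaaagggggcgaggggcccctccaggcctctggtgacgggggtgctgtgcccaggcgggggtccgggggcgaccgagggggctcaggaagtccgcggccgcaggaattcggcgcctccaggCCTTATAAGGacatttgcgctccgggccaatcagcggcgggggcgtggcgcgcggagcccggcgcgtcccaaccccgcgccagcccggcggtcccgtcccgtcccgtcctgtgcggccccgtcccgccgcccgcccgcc
NEXN: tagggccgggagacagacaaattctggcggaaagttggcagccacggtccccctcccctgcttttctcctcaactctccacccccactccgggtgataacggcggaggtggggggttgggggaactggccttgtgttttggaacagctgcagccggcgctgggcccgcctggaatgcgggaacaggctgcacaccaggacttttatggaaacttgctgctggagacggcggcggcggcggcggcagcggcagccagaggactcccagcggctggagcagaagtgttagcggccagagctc

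The SRF window held 2 boxes, CCATATAAGG ending 21 bases and CCATAAAAGG ending 1 base before the start, and the CNN2 window held 1, CCTTATAAGG, ending 80 bases before it. The NEXN window held none in this exact form, which says only that these letters are not in this window. A total of 8 of the 10 genes had an entry, with 11 promoters among them, and 2 of the 11 (18.2%) held a box. Of all 35116 promoters in the table, 454 (1.29%) held one. The box reads the same class of letters on either strand, so both strands were covered by a single search, and matches of overlapping boxes were counted.

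SRF encodes the factor. Its level was 40.1, 35.6 and 32.0 CPM with the combination, 44.5, 42.7 and 44.5 CPM with ipatasertib, 34.3, 39.5 and 41.0 CPM with tazemetostat and 39.7, 43.0 and 44.0 CPM with DMSO (libraries A, B and C in this order, here and below). The combination libraries all lay under the ipatasertib libraries, and A of the combination overlapped the DMSO range. On the log2 scale, SRF with the combination differed from DMSO by -0.23 ± 0.09 (SE), past the threshold of an adjusted p of 0.05. That call was lost without DMSO library B (-0.23), DMSO C (-0.21), combination B (-0.22) or combination C (-0.15), and with library totals in place of scaling factors (-0.17); without the A library of every group the difference was -0.37. From ipatasertib the combination differed by -0.29 ± 0.09, a call lost without combination C (-0.21). The differences of ipatasertib from DMSO (0.06 ± 0.08) and of tazemetostat from DMSO (-0.14 ± 0.08) did not pass. The difference of the combination from tazemetostat (-0.09 ± 0.09) did not pass either, but did without the A libraries (-0.25). RNA per cell and the number of cells of a kind cannot be told apart in bulk libraries, here or in what follows.

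**Figure D1:**
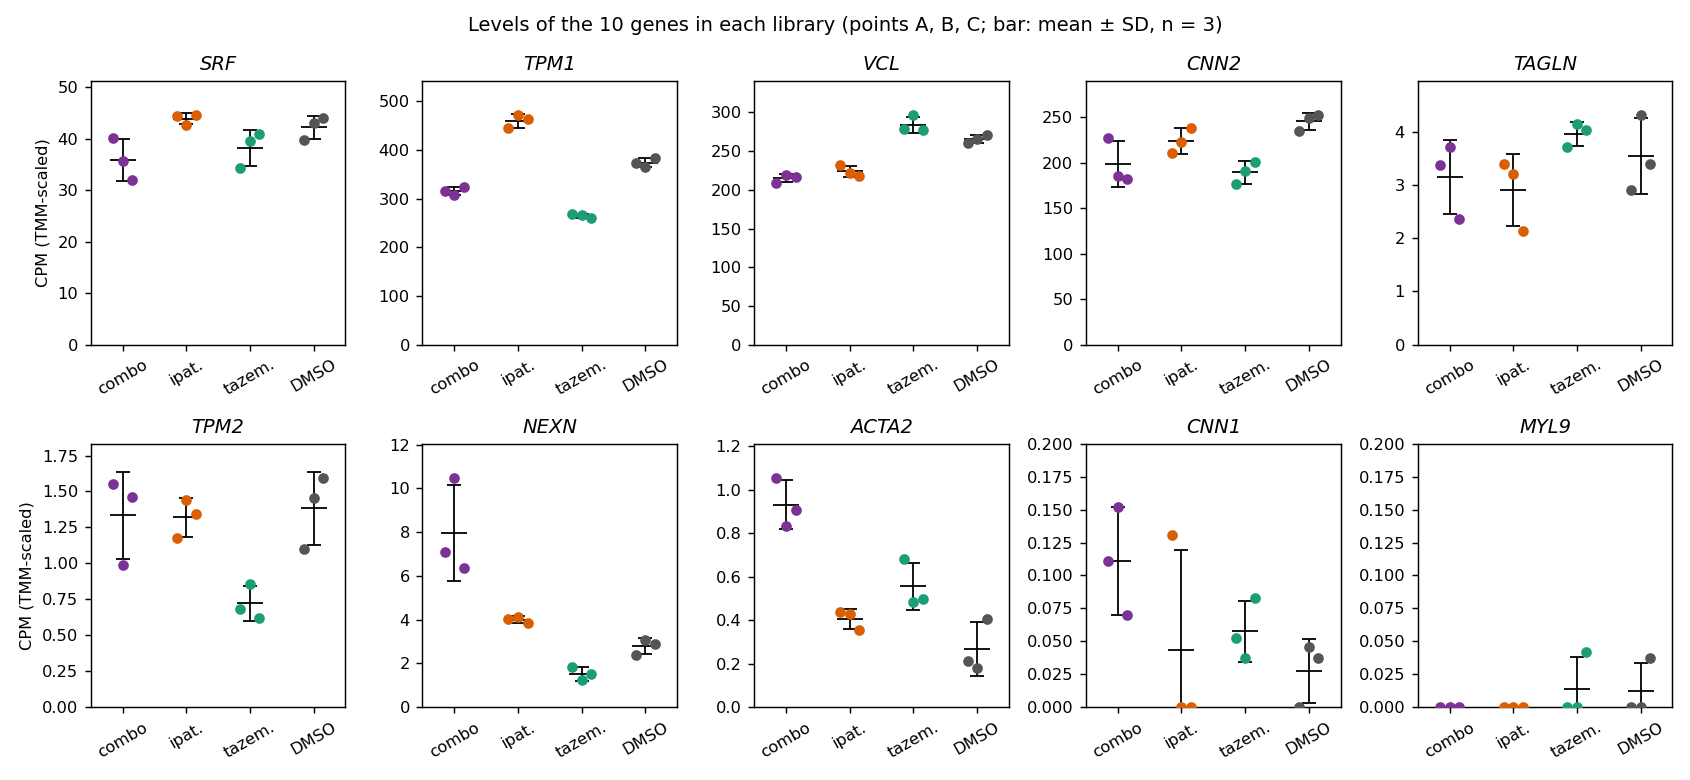
Level of each of the 10 genes in CPM (vertical axes, linear, from 0) in the 12 libraries, with groups from left to right: combination, ipatasertib, tazemetostat and DMSO. Points are libraries A, B and C from left to right, and bars are the mean ± SD (n = 3), drawn down to 0 at the lowest; NEXN reached 6.34 to 10.5 CPM with the combination, above every library of the other groups, and TPM1 fell into 4 groups without overlap.

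TPM1 encodes an alpha tropomyosin, which lies along the actin filament and governs access of myosin and other partners. Its level was 316, 307.5 and 323 CPM with the combination, 445, 471 and 463.5 CPM with ipatasertib, 267, 267 and 260 CPM with tazemetostat and 372, 366 and 383 CPM with DMSO. All 4 groups were separate: ipatasertib was highest, DMSO next, then the combination, and tazemetostat lowest. Relative to DMSO, the log2 difference was -0.25 ± 0.06 with the combination, 0.30 ± 0.06 with ipatasertib and -0.50 ± 0.06 with tazemetostat. The combination differed by -0.54 ± 0.06 from ipatasertib and by 0.25 ± 0.06 from tazemetostat. All 5 were past the threshold, and under no alternative did any of them cross it.

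TPM2 encodes beta tropomyosin, prominent in muscle. Its level was 1.55, 0.986 and 1.46 CPM with the combination, 1.18, 1.44 and 1.34 CPM with ipatasertib, 0.681, 0.859 and 0.624 CPM with tazemetostat and 1.10, 1.45 and 1.59 CPM with DMSO. Only the tazemetostat libraries lay apart from those of the other groups, below all of them. Tazemetostat differed from DMSO by -0.91 ± 0.25 on the log2 scale, and the combination differed from tazemetostat by 0.89 ± 0.28. The second of these calls was lost without tazemetostat library C (0.78), without combination library A (0.75) and without the A library of every group (0.72). Counts ranged from 13 to 43 per library, and the combination (-0.02 ± 0.25) and ipatasertib (-0.07 ± 0.23) did not pass against DMSO, nor did the combination against ipatasertib (0.04 ± 0.25).

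VCL encodes vinculin, which ties actin filaments to integrin and cadherin adhesions. Its level was 209, 220 and 217 CPM with the combination, 232, 222 and 218 CPM with ipatasertib, 279, 296 and 278 CPM with tazemetostat and 261, 265.5 and 271 CPM with DMSO. The groups that received ipatasertib overlapped each other and lay below DMSO, and the tazemetostat libraries lay above DMSO. The log2 difference from DMSO was -0.30 ± 0.06 with the combination and -0.25 ± 0.06 with ipatasertib, both past the threshold. With tazemetostat it was 0.10 ± 0.06, which did not pass, though it did with library totals in place of scaling factors (0.17). The combination differed from tazemetostat by -0.40 ± 0.06, past the threshold, and from ipatasertib by -0.06 ± 0.06, which did not pass.

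CNN2 encodes a calponin that is also found outside muscle, an actin-binding protein that steadies stress fibres. Its level was 228, 185 and 182 CPM with the combination, 211, 223 and 239 CPM with ipatasertib, 176, 191 and 201 CPM with tazemetostat and 235, 250 and 252 CPM with DMSO. The combination and tazemetostat libraries lay below DMSO, and the ipatasertib range overlapped DMSO. Library A of the combination stood above B and C. The log2 difference from DMSO was -0.31 ± 0.08 with the combination and -0.37 ± 0.08 with tazemetostat, both past the threshold. With ipatasertib it was -0.13 ± 0.08, which passed only when the fit was restricted to ipatasertib and DMSO. The combination differed from ipatasertib by -0.17 ± 0.08, which did not pass; it did without combination library A (-0.29), without the A library of every group (-0.33) and with no filter on low counts (-0.20). Its difference from tazemetostat (0.07 ± 0.08) did not pass.

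NEXN encodes nexilin, an F-actin-binding protein of cell adhesions and, in heart muscle, of the Z-disc and junctional membranes. It had 7.09, 10.5 and 6.34 CPM with the combination, 4.05, 4.11 and 3.83 CPM with ipatasertib, 1.83, 1.23 and 1.497 CPM with tazemetostat and 2.38, 3.09 and 2.89 CPM with DMSO. The 4 groups were separate, in the order combination, ipatasertib, DMSO and tazemetostat, and library B of the combination was the highest of all 12. Its level with the combination was 2.85 times that with DMSO (log2 difference 1.51 ± 0.17), 1.98 times that with ipatasertib (0.98 ± 0.17) and 5.27 times that with tazemetostat (2.40 ± 0.20). Its log2 difference from DMSO was 0.53 ± 0.18 with ipatasertib and -0.89 ± 0.22 with tazemetostat. All 5 differences passed. The call for ipatasertib was lost without DMSO library A (0.40), ipatasertib A (0.49), ipatasertib B (0.50) or the A library of every group (0.41), and the other 4 calls held under each alternative run.

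The smooth muscle genes among the 10 were low. ACTA2 encodes the actin of smooth muscle and of myofibroblasts. It had 1.05, 0.834 and 0.906 CPM with the combination, 0.436, 0.427 and 0.355 CPM with ipatasertib, 0.681, 0.486 and 0.499 CPM with tazemetostat and 0.213, 0.182 and 0.407 CPM with DMSO. The combination libraries lay above all others, tazemetostat lay above ipatasertib and DMSO, and the ranges of ipatasertib and DMSO overlapped. The log2 difference of the combination was 1.77 ± 0.36 from DMSO and 1.21 ± 0.34 from ipatasertib, both past the threshold. ACTA2 reached the level of the filter in all libraries of the combination and tazemetostat, and in 0 of 3 ipatasertib and 0 of 3 DMSO libraries, so these calls are a description and support nothing. Its difference from tazemetostat (0.78 ± 0.32) did not pass, but did without DMSO library C (0.78) or tazemetostat library A (0.93).

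For ACTA2, tazemetostat differed from DMSO by 0.99 ± 0.37, past the threshold, and ipatasertib by 0.56 ± 0.40, which did not pass. The call for tazemetostat was lost without DMSO library A (0.81) or B (0.81) and without tazemetostat library A (0.84), B (1.07) or C (1.04). It was also lost without the A library of every group (0.68), in DESeq2 (1.01), with no filter on low counts (0.98) and in a fit of the pair of groups alone (0.99). Filtering at 50 counts in 3 libraries removed ACTA2 and TPM2 from the fit.

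Fibroblasts carry ACTA2, and their markers differed between groups. The 7 fibroblast markers (COL1A1, COL1A2, COL3A1, DCN, LUM, PDGFRB and THY1) summed to 9.48 to 11.5 CPM with the combination, 5.23 to 5.53 CPM with ipatasertib, 15.7 to 19.3 CPM with tazemetostat and 9.72 to 11.7 CPM with DMSO. COL1A1, a collagen chain, made up most of each sum, with means of 8.28 CPM with the combination, 5.16 CPM with ipatasertib, 14.4 CPM with tazemetostat and 10.7 CPM with DMSO. LUM, lumican, had 1.84 CPM with the combination and 2.30 CPM with tazemetostat, so that the sum alone does not show how the list differs. THY1 had no read with ipatasertib, tazemetostat or DMSO, and DCN and LUM had none with ipatasertib or DMSO. The 5 endothelial markers (PECAM1, CDH5, VWF, TEK and ESAM) summed to 9.40 to 12.1 CPM with the combination, 3.95 to 4.40 CPM with ipatasertib, 10.01 to 12.8 CPM with tazemetostat and 5.00 to 5.90 CPM with DMSO. This sum, too, hides opposite differences. CDH5 averaged 3.82 CPM with the combination, 0.472 CPM with tazemetostat and 0.150 CPM with DMSO. ESAM averaged 10.2 CPM with tazemetostat, 6.11 CPM with the combination and 4.60 CPM with DMSO. PECAM1 averaged 0.0717 CPM with the combination against 0.351 CPM with DMSO. The part of these genes in the level of ACTA2 was not tested.

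TAGLN encodes transgelin, an actin cross-linker and an early smooth muscle marker. Its level was 3.38, 3.72 and 2.37 CPM with the combination, 3.40, 3.20 and 2.13 CPM with ipatasertib, 3.72, 4.15 and 4.03 CPM with tazemetostat and 2.91, 4.32 and 3.41 CPM with DMSO. The DMSO range overlapped all others, and the tazemetostat libraries lay above those of ipatasertib. The log2 difference from DMSO was -0.15 ± 0.20 with the combination, -0.28 ± 0.19 with ipatasertib and 0.18 ± 0.18 with tazemetostat, and none passed. The combination differed by 0.13 ± 0.21 from ipatasertib and by -0.33 ± 0.20 from tazemetostat, and neither passed. The highest combination library (B, 3.716 CPM) and the lowest of tazemetostat (A, 3.721 CPM) were level. Without the A library of every group, the difference with ipatasertib was -0.56 and passed.

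CNN1, the calponin of differentiated smooth muscle, was near the floor. It had 2, 2 and 1 counts with the combination, 3, 0 and 0 with ipatasertib, 1, 1 and 2 with tazemetostat and 0, 1 and 1 with DMSO. MYL9, a regulatory myosin light chain of smooth muscle, had no count with the combination or ipatasertib and 1 count each in library C of tazemetostat and of DMSO. With a count of 0 over the group, the upper 95% Poisson limit for MYL9 was 0.0809 CPM with the combination and 0.0550 CPM with ipatasertib. No difference between groups was detectable for either gene at this depth.

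Other smooth muscle markers were present in part. The list of DES, MYH11, LMOD1, SMTN, SYNPO2, ACTG2, MYOCD and SYNM summed to 43.6 to 49.98 CPM with the combination, 50.4 to 56.0 CPM with ipatasertib, 51.5 to 66.7 CPM with tazemetostat and 56.3 to 60.1 CPM with DMSO. SMTN and SYNM made up most of it, with 24.8 and 18.4 CPM with the combination against 31.2 and 24.7 CPM with DMSO. Markers of lower level differed among themselves. LMOD1 averaged 1.39 CPM with the combination against 0.375 CPM with DMSO, and SYNPO2 0.623 CPM against 0.184 CPM. ACTG2 was lower with the combination, like SMTN and SYNM, at 0.107 CPM against 0.376 CPM with DMSO. DES, the muscle intermediate filament, had no read with the combination, ipatasertib or DMSO, and MYOCD, the smooth muscle partner of serum response factor, had none with ipatasertib or DMSO. MYH11 was read in every group, at 1.74 CPM with the combination, 1.80 CPM with ipatasertib, 1.34 CPM with tazemetostat and 1.52 CPM with DMSO. Among the markers of smooth muscle, DES and MYOCD were thus absent or near the floor, and MYH11 was low but present. The label contractile names the role of these genes in muscle.

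Per kilobase of exon, the order of levels with DMSO was CNN2 (109.5 ± 4.17 CPM per kb, SD, n = 3), TPM1 (44.8 ± 1.04), VCL (39.7 ± 0.76), SRF (10.05 ± 0.53), TAGLN (1.48 ± 0.30), TPM2 (0.843 ± 0.155), NEXN (0.822 ± 0.108), ACTA2 (0.198 ± 0.091), CNN1 (0.0144 ± 0.0127) and MYL9 (0.0044 ± 0.0076). TPM2 and NEXN did not differ beyond their spread, nor did CNN1 and MYL9. With the combination, NEXN (2.35 ± 0.65 CPM per kb) stood above TAGLN (1.31 ± 0.29), and with tazemetostat VCL (42.5 ± 1.54) stood above TPM1 (31.7 ± 0.51).

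**Figure D2:**
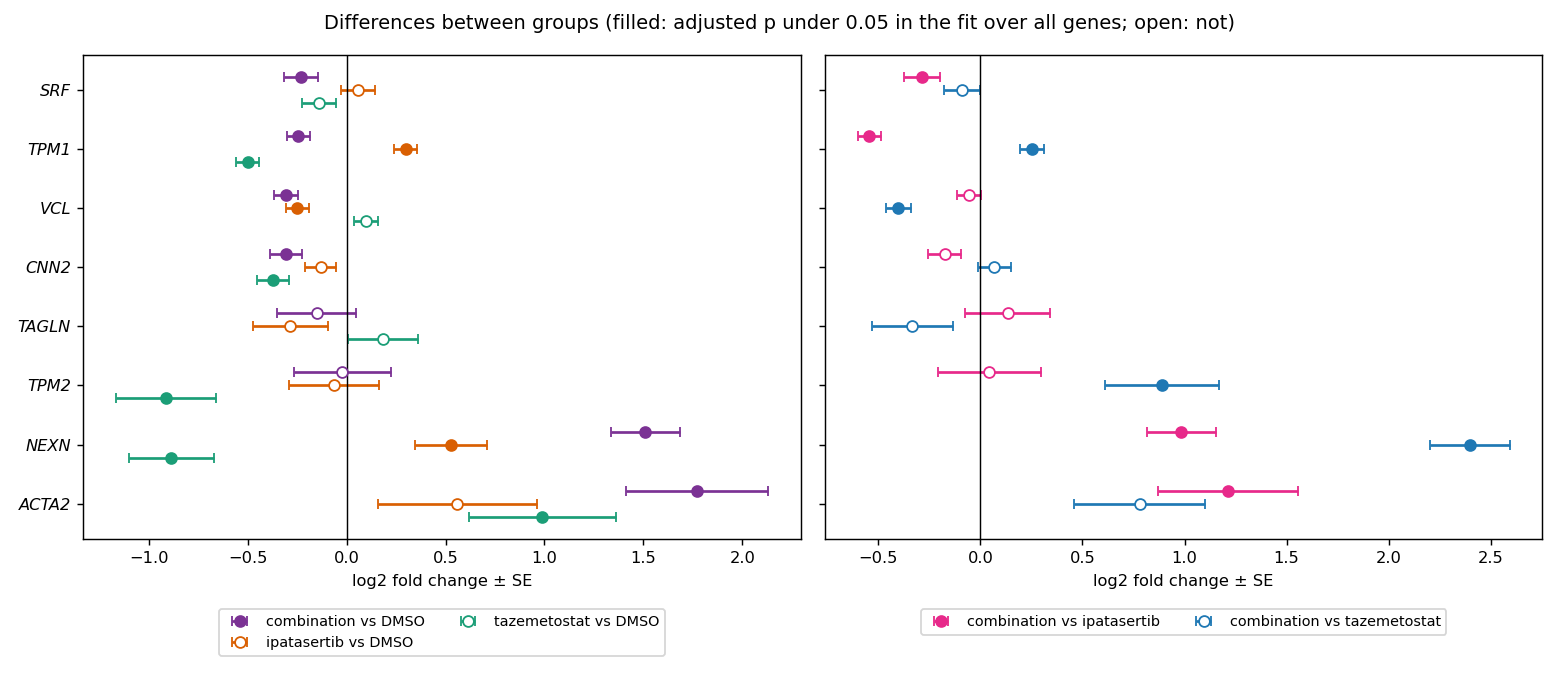
Log2 fold change ± SE (horizontal axis) of the 8 fitted genes, with the combination, ipatasertib and tazemetostat each against DMSO at left and the combination against each drug at right. Filled points passed an adjusted p of 0.05 in the fit over all genes; NEXN and TPM1 lie on opposite sides of 0 for ipatasertib and tazemetostat, at 0.53 and 0.30 against -0.89 and -0.50.

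The number of members past the threshold is given beside the share of all fitted genes past it, and nothing is read from it, since these contrasts were known when the genes were chosen. With the combination against DMSO, 2 of the 8 fitted members were higher and 4 lower, where 34.4% of all fitted genes were higher and 30% lower. With ipatasertib, 2 were higher and 1 lower, against 24% and 23.1% of all genes. With tazemetostat, 1 was higher and 4 lower, against 25.9% and 21.3%. The combination against ipatasertib gave 2 higher and 2 lower, with 24.2% and 20.7% of all genes, and the combination against tazemetostat gave 3 higher and 1 lower, with 23.2% and 23.1%. The members' median log2 difference from DMSO was -0.19 with the combination, -0.00 with ipatasertib and -0.26 with tazemetostat, where the median over all fitted genes was 0.03, 0.00 and 0.01.

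The comparisons of ipatasertib and of tazemetostat with DMSO use the same DMSO libraries, so the values of the 2 are given side by side without a count of shared or opposite signs. For NEXN they were 0.53 ± 0.18 and -0.89 ± 0.22, and for TPM1 0.30 ± 0.06 and -0.50 ± 0.06, ipatasertib in each case before tazemetostat. For VCL they were -0.25 ± 0.06 and 0.10 ± 0.06 in the same order. For ACTA2 they were 0.56 ± 0.40 and 0.99 ± 0.37, and for CNN2 -0.13 ± 0.08 and -0.37 ± 0.08. TPM2 had -0.07 ± 0.23 and -0.91 ± 0.25. TAGLN had -0.28 ± 0.19 and 0.18 ± 0.18, and SRF 0.06 ± 0.08 and -0.14 ± 0.08.

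The interaction term gives how far the combination lay from the sum of the single-drug differences on the log2 scale. For NEXN the sum was -0.36 and the combination stood at 1.51, so that the interaction was 1.87 ± 0.27, past the threshold; without the A library of every group it was 2.21. NEXN was the only 1 of the 8 fitted members past this threshold, and none was past it in the lower direction, where 5.96% of all fitted genes were past it as higher and 6.01% as lower. For TPM1 the sum was -0.20 and the combination -0.25, an interaction of -0.04 ± 0.08 that did not pass. TPM2 had an interaction of 0.96 ± 0.36, which did not pass, with a sum of -0.98 and a combination value of -0.02. ACTA2 had a sum of 1.55 and a combination value of 1.77 (interaction 0.22 ± 0.53). The other members lay between -0.15 ± 0.08 (VCL) and 0.20 ± 0.11 (CNN2), and none of these passed.

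**Figure D3:**
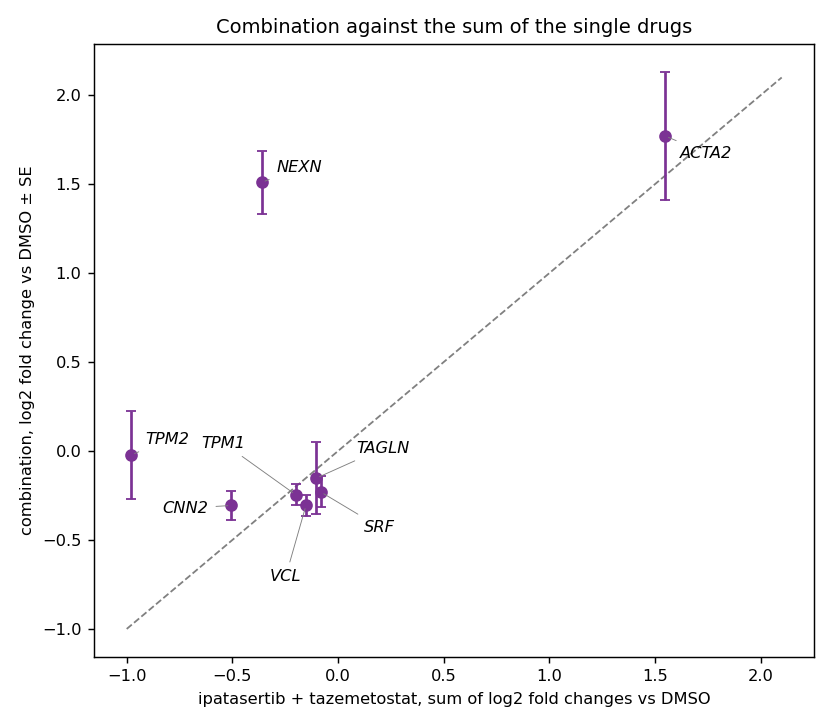
Combination against DMSO (vertical axis, log2 fold change ± SE) and the sum of the ipatasertib and tazemetostat log2 fold changes against DMSO (horizontal axis) for the 8 fitted genes. The dashed line marks equal values; NEXN lies above it by 1.87, and TPM1 lies close to it, with an interaction of -0.04.

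Of the 10 genes, all but SRF, NEXN and VCL belong to families whose levels per kilobase can be set in proportion. ACTB and ACTG1, the cytoplasmic actins, made up nearly all actin message, and ACTA2 was 0.0200% of the family sum with the combination, 0.0084% with ipatasertib, 0.0084% with tazemetostat and 0.0034% with DMSO. TAGLN2 made up 99.1%, 99.4%, 99.4% and 99.5% of transgelin message in the same order of groups, so TAGLN was the minor form throughout. CNN2 was 32.0% of calponin message with the combination, 36.9% with ipatasertib, 28.2% with tazemetostat and 33.6% with DMSO, and nearly all the rest was CNN3. Among tropomyosins TPM1 made up 13.7%, 18.0%, 10.6% and 13.2% in that order, and TPM4 was the largest at 58.7%, 55.3%, 53.9% and 53.0%. These shares depend on the length used, the union of annotated exons, which was 8347 bases for TPM1, 4789 for TPM3 and 3413 for TPM4. Before division by length, TPM1 averaged 460 CPM with ipatasertib, TPM3 389 CPM and TPM4 580 CPM. With DMSO they averaged 374, 546 and 615 CPM. MYL12A and MYL12B carried the regulatory light chain, with MYL9 at or near 0.

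**Figure D4:**
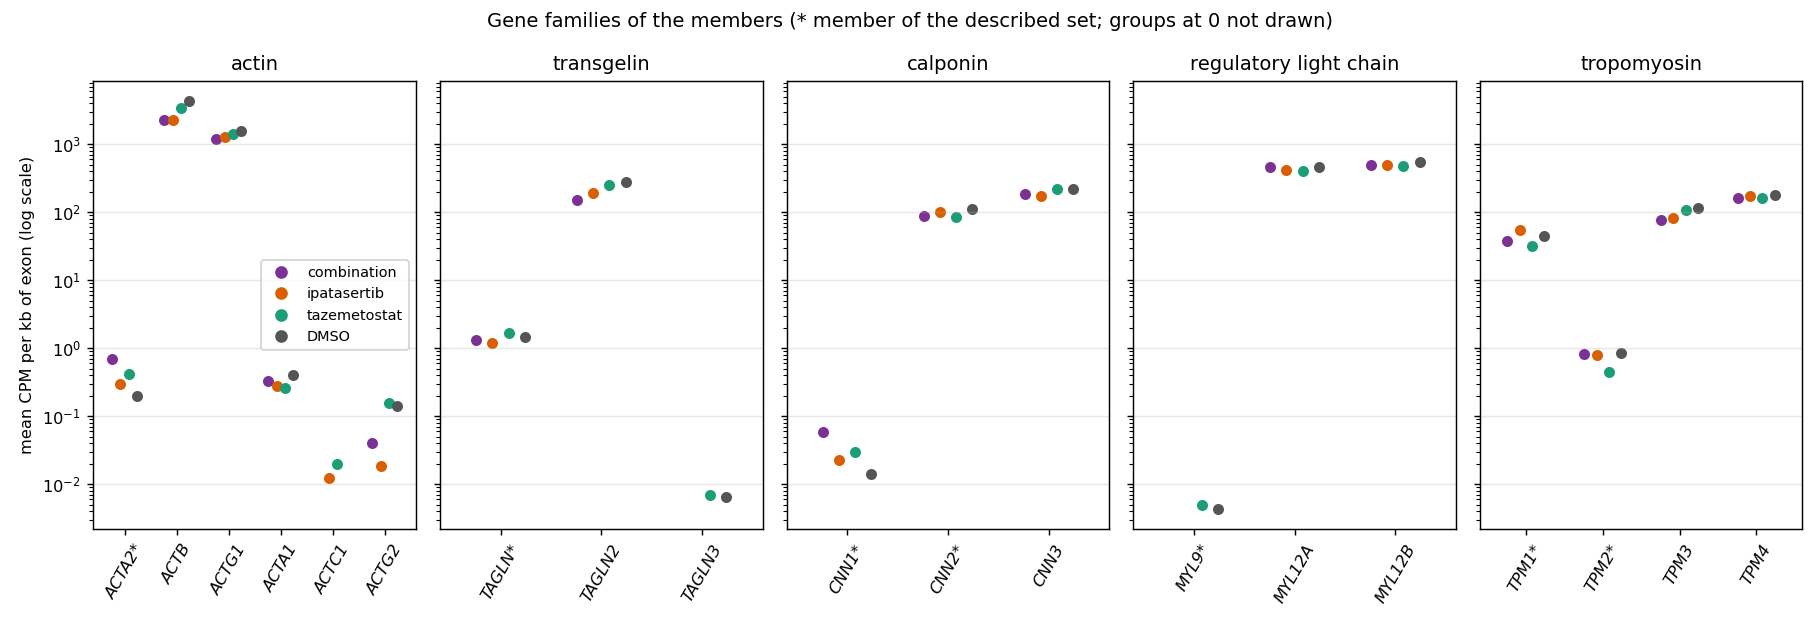
Mean level per kilobase of exon (vertical axis, log scale, CPM per kb) for the members, marked by an asterisk, and their relatives in 5 gene families, with groups in the order combination, ipatasertib, tazemetostat and DMSO. Groups at 0 are not drawn; ACTA2 and TAGLN lie far under ACTB and TAGLN2, while TPM1 and CNN2 lie within the range of their own families.

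The lists of related genes, here and below, were also chosen with earlier results of these data known. Genes were named from them for the largest changes among those already past the threshold. Their adjusted p-values therefore only describe and are no independent support. Most relatives that passed the test were lower with the drugs. Of 12 fitted relatives outside the set, 1 rose and 9 fell with the combination, none rose and 8 fell with ipatasertib, and none rose and 4 fell with tazemetostat (edgeR, adjusted p under 0.05 over all fitted genes). Of all fitted genes, 34.4% rose and 30% fell with the combination, 24% and 23.1% with ipatasertib, and 25.9% and 21.3% with tazemetostat. The median log2 difference from DMSO was -0.36, -0.37 and -0.14 in that order, against 0.03, 0.00 and 0.01 over all fitted genes. ACTB, the main cytoplasmic actin, averaged 4485 ± 264 CPM with the combination and 4539 ± 268 CPM with ipatasertib, against 8445 ± 695 CPM with DMSO (SD, n = 3). It differed from DMSO by -0.91 ± 0.07 with the combination (edgeR, adjusted p = 1.97e-10), by -0.90 ± 0.07 with ipatasertib (edgeR, adjusted p = 1.29e-09) and by -0.30 ± 0.07 with tazemetostat (edgeR, adjusted p = 0.00125). TAGLN2 fell by 0.88 on the log2 scale with the combination (edgeR, adjusted p = 6.98e-10) and by 0.54 with ipatasertib (edgeR, adjusted p = 2.81e-06). TPM3, another tropomyosin, fell by 0.59 with the combination (edgeR, adjusted p = 7.12e-09) and by 0.49 with ipatasertib (edgeR, adjusted p = 3.95e-07). With tazemetostat the other 3 were TPM4, MYL12A and MYL12B. Each of these 3 calls was lost when library totals replaced scaling factors and without DMSO library C. The calls for TPM4 and MYL12A were also lost with the library letter as a block and without DMSO library B or tazemetostat library C. That for MYL12A was lost as well with 50 counts demanded in 3 libraries and without ipatasertib library C or tazemetostat library B.

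Regulators of serum response factor were listed as well. Of 20 fitted cofactors and parts of the actin switch, 5 rose and 8 fell with the combination, 6 rose and 7 fell with ipatasertib, and 3 rose and 6 fell with tazemetostat. Over all fitted genes the shares that rose and fell were 34.4% and 30% with the combination, 24% and 23.1% with ipatasertib, and 25.9% and 21.3% with tazemetostat. ELK3, a ternary complex factor that partners serum response factor, averaged 11.3 ± 0.85 CPM with the combination, 7.74 ± 0.97 CPM with ipatasertib and 6.81 ± 0.56 CPM with tazemetostat, against 4.32 ± 0.41 CPM with DMSO (SD, n = 3). Its difference from DMSO was 1.38 ± 0.13 with the combination (edgeR, adjusted p = 3.08e-09). LIMK2, a kinase that inactivates cofilin, rose by 0.94 ± 0.08 with the combination (edgeR, adjusted p = 5.87e-10), by 0.74 ± 0.08 with ipatasertib (edgeR, adjusted p = 9.41e-08) and by 0.47 ± 0.08 with tazemetostat (edgeR, adjusted p = 2.78e-05).

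FHL2, a LIM-domain coactivator and antagonist at serum response factor targets, averaged 84.9 ± 4.23 CPM with the combination, 55.8 ± 2.102 CPM with ipatasertib, 49.3 ± 0.35 CPM with tazemetostat and 49.6 ± 2.15 CPM with DMSO (SD, n = 3). The combination libraries lay above all others, the ipatasertib libraries lay above DMSO, and the interaction was 0.62 ± 0.10 (edgeR, adjusted p = 0.000653). PFN1, profilin, which binds monomeric actin, differed by -0.80 ± 0.07 with the combination (edgeR, adjusted p = 8.03e-10). CFL1, cofilin, which severs filaments, differed by -0.53 ± 0.07 with ipatasertib (edgeR, adjusted p = 2.04e-06). PFN1 averaged 464 ± 33.0 CPM with the combination, 584 ± 42.3 with ipatasertib, 699 ± 10.3 with tazemetostat and 810 ± 21.5 with DMSO (SD, n = 3). CFL1 averaged 904 ± 74.7, 1050 ± 76.6, 1342 ± 30.3 and 1519 ± 71.3 CPM in the same order. MKL2, a coactivator released by actin assembly, rose by 0.36 ± 0.09 with tazemetostat (edgeR, adjusted p = 0.00215). The rise was not particular to tazemetostat. MKL2 averaged 49.8 ± 4.13 CPM with the combination, 49.3 ± 5.40 with ipatasertib, 52.0 ± 3.99 with tazemetostat and 40.4 ± 3.58 with DMSO (SD, n = 3). MKL1 averaged 47.8 ± 5.51, 57.9 ± 3.62, 49.9 ± 5.37 and 47.9 ± 2.14 CPM in the same order.

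Other cytoskeletal targets of the factor numbered 27, all fitted: 13 rose and 7 fell with the combination, 9 rose and 8 fell with ipatasertib, and 10 rose and 5 fell with tazemetostat. The same shares over all fitted genes were 34.4% and 30%, 24% and 23.1%, and 25.9% and 21.3% in that order of groups. MYLK, the kinase that activates myosin light chains, averaged 8.38 ± 0.40 CPM with the combination, 3.12 ± 0.54 CPM with ipatasertib and 11.5 ± 0.64 CPM with tazemetostat, against 5.47 ± 0.53 CPM with DMSO (SD, n = 3). It fell by 0.83 with ipatasertib (edgeR, adjusted p = 4.69e-05) and rose by 1.06 ± 0.12 with tazemetostat (edgeR, adjusted p = 1.26e-07). SVIL, supervillin, a filament-membrane linker, rose by 1.12 ± 0.08 with the combination (edgeR, adjusted p = 1.21e-10). It also rose with each single drug, by 0.78 ± 0.08 with ipatasertib and by 0.79 ± 0.08 with tazemetostat. CALD1, caldesmon, which binds actin beside tropomyosin, fell by 0.48 with tazemetostat (edgeR, adjusted p = 3.78e-06). With ipatasertib, a value looked up after the others were seen, it rose by 0.19 ± 0.07 (edgeR, adjusted p = 0.0223), a call lost without DMSO library A (0.14), ipatasertib library B (0.15) or tazemetostat library C (0.17). FLNA, filamin A, which cross-links filaments, had an interaction of -0.57 ± 0.13 (edgeR, adjusted p = 0.0082).

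Of 22 adhesion partners of vinculin, all fitted, 10 rose and 4 fell with the combination, 10 rose and 3 fell with ipatasertib, and 7 rose and 3 fell with tazemetostat, where 34.4% and 30%, 24% and 23.1%, and 25.9% and 21.3% of all fitted genes did. The integrin subunit ITGA2, part of a collagen receptor, averaged 67.6 ± 6.13 CPM with the combination, 28.3 ± 3.19 CPM with ipatasertib and 29.7 ± 3.05 CPM with tazemetostat, against 16.1 ± 1.28 CPM with DMSO (SD, n = 3). Its difference from DMSO was 2.07 ± 0.10 with the combination (edgeR, adjusted p = 8.14e-14). ITGA3 rose by 0.99 ± 0.07 (edgeR, adjusted p = 6.68e-10) and ITGB5 by 0.97 ± 0.06 (edgeR, adjusted p = 8.37e-11) with ipatasertib. With the combination ITGA3 rose by 1.13 ± 0.07 and ITGB5 by 1.01 ± 0.06. With tazemetostat ITGA3 averaged 80.7 CPM against 67.4 CPM with DMSO, and ITGB5 126 CPM against 121 CPM. TNS3, a tensin that links integrins to actin, had an interaction of -0.55 ± 0.11 (edgeR, adjusted p = 0.00319). In each of these comparisons vinculin itself had the values given above, and it was not higher in any group that received ipatasertib.

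**Figure D5:**
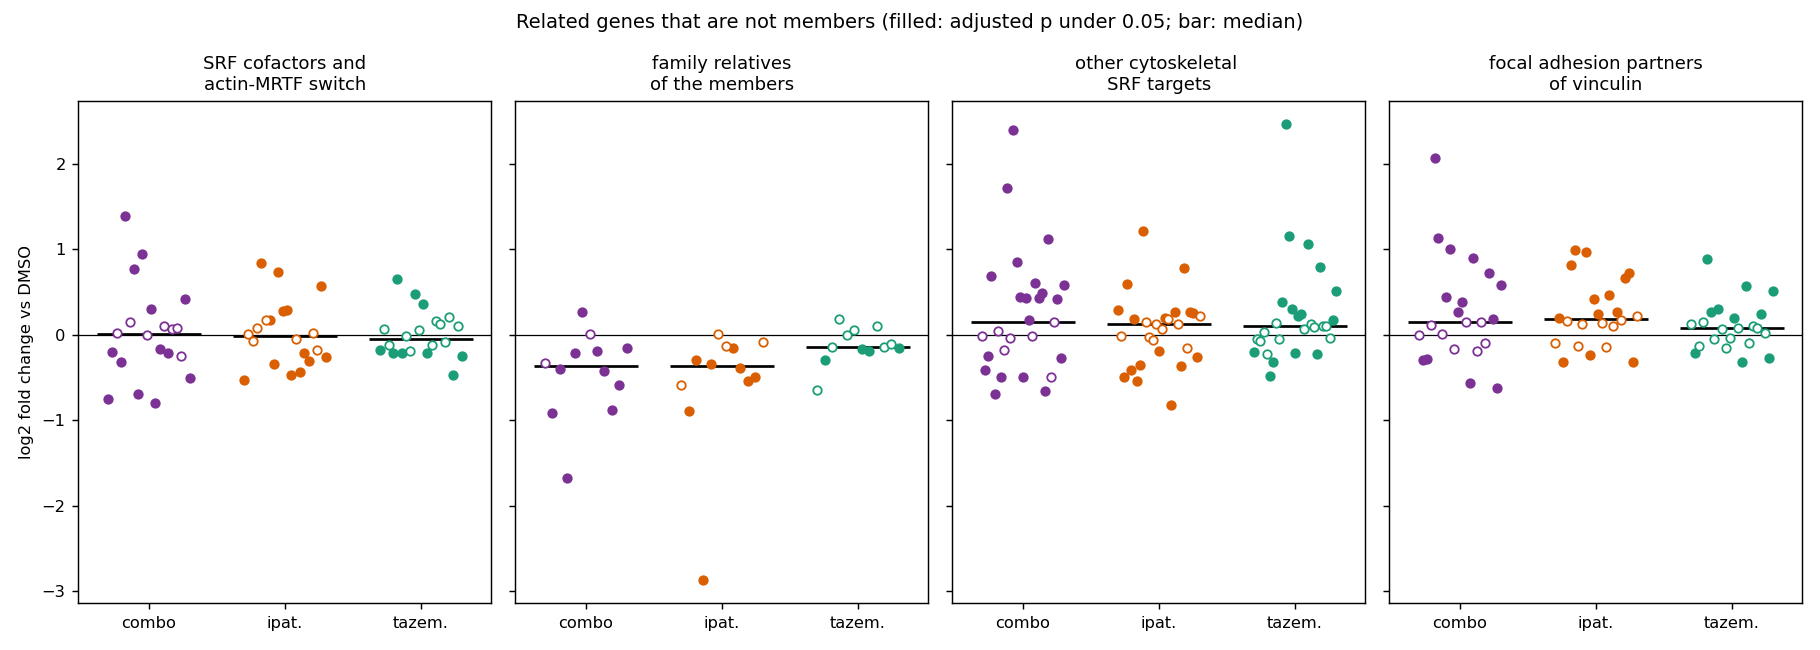
Log2 fold change against DMSO (vertical axis) of the fitted genes of 4 lists related to the 10 genes, with the combination, ipatasertib and tazemetostat from left to right in each panel. Filled points passed an adjusted p of 0.05 and bars are medians; the relatives of the members lie mostly below 0, with medians of -0.36, -0.37 and -0.14.

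The CArG box was also looked for in the lists. Of 154 promoters of 72 list genes outside the set, 16 (10.4%) held an exact box, against 1.29% of all promoters. The matches included FHL2 (CCTTATATGG, ending 50 bases before the start), SVIL (CCATAAAAGG, 24 bases), FLNA (CCAATTAAGG, 85 bases), MYLK (CCTTTTATGG, 85 bases), ACTG1 (CCATATATGG, 85 bases) and TPM4 (CCAAATAAGG, 164 bases). None of the 34 promoters of the adhesion list held one. A match is a run of letters and was not tested for binding here.

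Genes outside the set whose 4 group means lay nearest to those of each member were found by the root mean square distance of centred log2 levels over the 4 groups. The nearest were WWTR1 for TPM1 (distance 0.0178), CELF1 for CNN2 (0.0105), C11orf80 for VCL (0.00873), TADA2A for SRF (0.00758), LIPE for TAGLN (0.00322), ARID4A for TPM2 (0.0301) and EXT1 for ACTA2 (0.0161). Adding 0.5 CPM before the log flattened members of low level, so distances here do not mean equal fold changes. ACTA2 averaged 0.931 CPM with the combination and 0.267 CPM with DMSO, where EXT1 averaged 45.2 and 23.4 CPM. TPM2 averaged 0.721 CPM with tazemetostat and 1.38 CPM with DMSO, where ARID4A averaged 68.9 and 108.6 CPM. For NEXN the nearest were OLR1 (0.249) and HRASLS2 (0.257). OLR1 averaged 6.29 CPM with the combination, 4.87 with ipatasertib, 2.08 with tazemetostat and 2.91 with DMSO. Among the members themselves, NEXN lay 0.584 from its nearest, TPM2, and the closest pair was TAGLN and VCL at 0.0637.

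Several of the genes share sequence or position with others. ACTA2, CNN2, NEXN, TAGLN, TPM1 and VCL each overlap the exons of an annotated gene on the opposite strand, and, with the strand setting of the counts unknown here, reads of the partners cannot be told apart. Reads without a unique alignment had a row of their own, with 10.1% (tazemetostat B) to 12.6% (DMSO B) of the counted total. Reads shared by the actins, by the tropomyosins, by CNN2 and its pseudogenes, and by MYL9 and the MYL12 genes may be among them. The low levels of ACTA2 and MYL9 are uncertain for that reason.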

How the data were processed

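Poly(A) RNA was sequenced from 12 libraries of 1 cell line in 4 groups of 3. The deposited files hold raw counts, 1 table per library, with genes given by symbol. The submitters' processing notes name STAR, SAMtools, HTSeq, DESeq2 and hg19, with no versions. Annotation and strand setting were not given in the sources used here. Rows naming no gene held 32.0% to 39.5% of the counted total and were left out. A deposited table of normalized values was not used.

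The quasi-likelihood test of edgeR 4.0.16 (R 4.3.3, robust setting) was run on all libraries in a model of 4 group means, which left 8 residual degrees of freedom. Genes passed filterByExpr at a minimum count of 10, scaling was by TMM, and p-values were adjusted by Benjamini-Hochberg over 14571 genes with a threshold of 0.05. SE is the log2 fold change divided by the root of F. CPM uses TMM-scaled totals of the fitted genes; pattern distances add 0.5 CPM. Floors of 3 counts take in counting error alone, because reads lacking molecular identifiers need not be separate molecules. Exon lengths are the union of exons in GENCODE 29 basic (GRCh38), not the counting annotation. The fit was tested on simulated counts.

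The members and lists were chosen with earlier results of these data known. Beside the 10 members, up to 4 fitted genes of each list per comparison could be named, with the largest change among those past the threshold and at least 5 CPM in the highest group, and the 2 nearest patterns per member; part of these are printed. The fit was repeated with DESeq2 1.42.0, with RLE factors or plain library totals, unfiltered or with 50 counts demanded in 3 libraries, on only the groups compared, with the library letter as replicate block, and with each library left out. Leaving out library A of every group was chosen after seeing the data. Same-letter libraries of ipatasertib and DMSO deviated together from their group means (correlations 0.43, 0.14 and 0.11, above a bound of 0.1), and the blocked fit was used there as the paired alternative; the other comparisons had at least 1 pair under it. A further marker list is not reported here.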

Additional observations from a re-analysis of the deposited data

Results flagged for a closer look

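The difference that tazemetostat made to NEXN depended on whether ipatasertib was present, by the interaction term of the edgeR fit. NEXN had 7.09, 10.5 and 6.34 CPM with the combination and 4.05, 4.11 and 3.83 CPM with ipatasertib, so that adding tazemetostat to ipatasertib went with a log2 difference of 0.98 ± 0.17. It had 1.83, 1.23 and 1.497 CPM with tazemetostat and 2.38, 3.09 and 2.89 CPM with DMSO, a difference of -0.89 ± 0.22. The difference between these differences was 1.87 ± 0.27 on the log2 scale (edgeR), with every library of each drug pair on its own side. The value was 2.21 without the A library of every group. NEXN was chosen with results of these data known, so this is a description.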

How the results depend on the processing

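Over 20 alternatives, 940 log2 differences of the members were compared: 911 moved by less than the spread between libraries, 29 moved by more, and no called one changed sign. Of 1750 values for 88 named list results, 1673 stayed past the threshold, 77 did not, and 0 changed sign. The cause was not tested for any change below unless the alternative itself removes genes or libraries.

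Members higher with tazemetostat numbered 2 with library totals and 0 with DESeq2, with no filter, with 50 counts in 3 libraries (which removes ACTA2), in the groups alone and without the A libraries, and 0 to 1 with each library left out, against 1. Members higher with the combination numbered 1 against DMSO and 1 against ipatasertib with 50 counts in 3 libraries. With ipatasertib, members lower numbered 2 in the groups alone and 2 without the A libraries, and members higher 1 without the A libraries and 1 to 2 with each library left out. Members lower numbered 2 against tazemetostat without the A libraries, and 1 to 3 against ipatasertib with each library left out, both for the combination. Calls over all fitted genes moved too. With tazemetostat they numbered 6874 in the main fit, 6732 with library totals and 8126 without the A libraries. With ipatasertib they numbered 6864 in the main fit, 7756 in the groups alone and 7185 without the A libraries. Nothing about the members is read from these counts.

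List genes lower with tazemetostat were 18 of 78 in the main fit, beside 21.3% of all fitted genes. They numbered 6 with library totals, and 8 to 25 with each library left out. Calls over all fitted genes ran from 5642 (without DMSO library C) to 7435 (without combination library A), against 6874. For the combination against ipatasertib, list genes lower numbered 12 to 23 with each library left out, against 20 of 78 and 20.7% of all. Calls over all fitted genes there ran from 5298 (without combination library B) to 7084 (without tazemetostat library A), against 6540. Over all fitted genes, library totals changed the share of calls that were higher from 54.9% to 67.9% for tazemetostat and from 49.8% to 33.6% for the interaction.

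The interaction was the comparison that varied most. It called 1744 genes, 1012 with the replicate block, 5447 without the A libraries and 637 to 3689 with each library left out, the highest without tazemetostat library A. Its list genes, 6 higher and 5 lower, numbered 2 and 3 with the replicate block, 20 and 27 without the A libraries, and 1 to 11 and 2 to 13 with each library left out; those lower numbered 9 with library totals and 9 with no filter. With the block, ipatasertib against DMSO called 6345 genes, and the block changed no call of a member. Only 1 of the 3 letters matched its own best in that comparison. Depth limits ACTA2, TPM2, CNN1 and MYL9, at 0 to 43 counts per library.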
